A study of Mus musculus with 6 samples.

Results

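Basement membranes are thin sheets of matrix on which epithelium and endothelium rest, and they were followed here through 31 genes chosen by symbol: 6 chains of type IV collagen, 10 laminin chains, the nidogens, the linking proteoglycans, the Fraser complex, 6 receptor genes, a crosslinking enzyme and a matricellular protein. All 31 of 31 were among the 17973 mRNAs of the count table, and all 31 were among the 15808 mRNAs that passed the filter on low counts. Total RNA of whole lung from C57BL/6 mice was sequenced in 6 libraries, 3 of them from controls (called C7, C8 and C9 in the labels) and 3 from mice with silicosis (called N129, N136 and N138). Per the labels, silicosis was produced by 8 mg of silica given once into the trachea in 40 µL of saline, and lungs were frozen at day 90. The series text describes the comparison animals as receiving sterile saline, and no source used here gives age, sex or any pooling of animals. Whether each library is a mouse of its own is not stated in the labels, so p-values measure the spread between these libraries only.

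Type IV collagen chains assemble in threes inside the cell and join outside it into a network. The widespread network is built from the Col4a1 and Col4a2 chains, and a more specialised one, found in the alveolar and glomerular basement membranes, from the Col4a3, Col4a4 and Col4a5 chains. Laminins are cross-shaped trimers of an alpha, a beta and a gamma chain that polymerise into a second network, nidogens and perlecan link both networks, and integrins and dystroglycan tie cells to them. In the alveolus the epithelial and capillary basement membranes fuse over part of the gas exchange surface.

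The 6 type IV collagen genes lie in head-to-head pairs, each pair transcribed outward from neighbouring starts. Bases before the starts of Col4a4, Col4a6 and Col4a5 are shown. Of these pairs, only Col4a6 and Col4a5 are compared by count ratio below. In GENCODE M21 on GRCm38, an earlier build than the GRCm39 named by the submitters' processing notes, the starts of Col4a1 and Col4a2 on chromosome 8 overlapped by 22 bases. Those of Col4a4 and Col4a3 on chromosome 1 were 126 bases apart, and those of Col4a6 and Col4a5 on chromosome X were 1308 bases apart. RefSeq (GRCm38.p6) had promoter entries for 20 of the 31 members. From these, the bases before the start that lie in no annotated exon and in no other gene are printed 5′ to 3′ on the gene's own strand, in lower case. Capitals mark matches, on either strand, to a GC box, searched as the letters GGGCGG. They also mark the CCAAT box, searched by the letters of its name. The motif searched as TATAAA is called the TATA box, and no motif match overlapped another. The Col4a4 stretch is chr1:82586850-82586920 on the minus strand (71 bases, up to where RefSeq places the start of Col4a3), the Col4a6 stretch chrX:141474077-141474326 on the minus strand (250 bases) and the Col4a5 stretch chrX:141475169-141475384 on the plus strand (216 bases).
Col4a4: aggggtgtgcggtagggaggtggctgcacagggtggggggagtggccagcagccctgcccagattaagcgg
Col4a6: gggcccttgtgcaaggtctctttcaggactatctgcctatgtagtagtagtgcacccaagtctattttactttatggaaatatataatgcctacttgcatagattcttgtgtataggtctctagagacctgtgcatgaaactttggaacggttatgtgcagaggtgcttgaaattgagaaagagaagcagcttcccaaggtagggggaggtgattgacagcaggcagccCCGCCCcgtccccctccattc
Col4a5: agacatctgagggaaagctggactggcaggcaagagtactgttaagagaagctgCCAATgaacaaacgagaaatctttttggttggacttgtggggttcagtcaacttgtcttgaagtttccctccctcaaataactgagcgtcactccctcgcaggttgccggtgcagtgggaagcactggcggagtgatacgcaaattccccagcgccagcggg

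The stretch between Col4a4 and Col4a3 held none of the 3 motifs, and its GC content was 69%. The Col4a6 stretch held 1 GC box, and the Col4a5 stretch held 1 CCAAT box. Over 32851 RefSeq promoters, a GC box was found in 20.7% of the 71 bases before the start and in 32.7% of the 250 bases. A CCAAT box was found in 13.3% of the 71-base and 30.8% of the 216-base windows. A TATA box was found in 4.41% of the 71-base windows. These matches describe letters in a window and nothing about binding.

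Across the whole set, 18 members fell in silicosis, 4 rose and 9 did not pass the test. The count of members that rose was 2 without C7, without C8, without C9 or without N129. Calls were made at an adjusted p under 0.05 with edgeR's quasi-likelihood test and Benjamini-Hochberg adjustment over all tested mRNAs. Of those 15808 mRNAs, 16.5% were lower and 15.3% higher, 31.8% in all, so 18 of 31 lower stands against a background of 16.5%. The median log2 fold change of the members was -0.39, against 0.02 over all tested mRNAs, and the members ranged from -0.97 (Col4a3) to 1.73 (Smoc2). All 18 members that fell had every silicosis library below every control library, in CPM (counts per 1000000 of a library total adjusted by TMM factors). Over all tested mRNAs the groups were separated in this direction for 24%, in the other for 23.7% and in either for 47.7%. The members together took between 0.849% and 0.963% of all raw counts in the controls and between 0.774% and 0.851% in silicosis. On that scale, without TMM factors, the groups overlapped slightly, at C9 and N136. Their summed CPM, with TMM factors, was 8797 to 10140 in the controls and 7256 to 8534 in silicosis, without overlap.

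**Figure D1:**
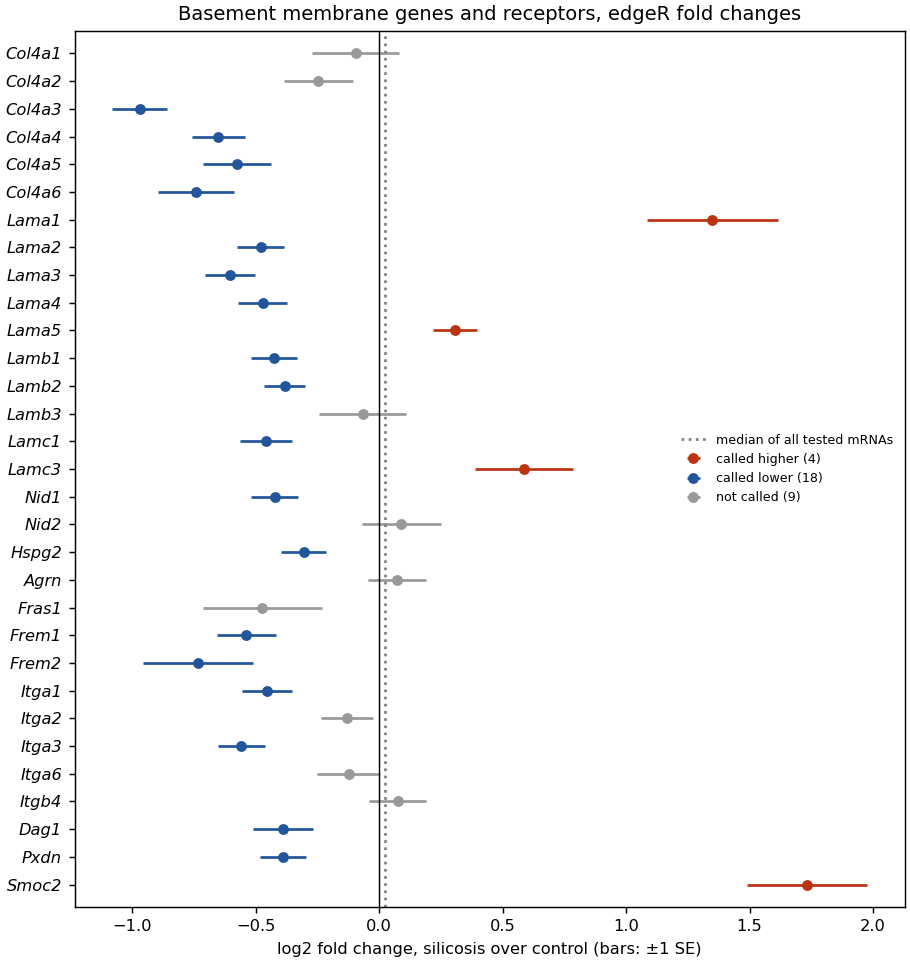
Log2 fold change of each of the 31 members, silicosis over control, with bars of 1 SE to each side (edgeR, 3 libraries per group); red points were called higher (4), blue called lower (18) and grey not called (9), and the dotted line is the median of all tested mRNAs. Col4a3 has the lowest value at -0.97, and Smoc2 and Lama1 stand alone at the right with 1.73 and 1.35.

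Library totals of mRNA counts were 39702310 to 44000748 in the controls and 33698920 to 43735169 in silicosis, and the lowest count of any member in any library was 189, for Frem2 in N136. In windows of 50 bases, the longest GENCODE transcripts of 21 members shared no sequence with other genes, and the highest share was 8.08%, for Nid2. No source used here states whether counting used strand, so reads from a gene and from an antisense partner over it cannot be told apart. In whole lung RNA, fewer cells of a type and less RNA per cell cannot be told apart either. The markers of several cell types moved with the groups. The counts that follow stand beside 15.3% higher and 16.5% lower over all tested mRNAs. Among endothelial markers 9 of 12 fell and 0 rose, and their summed level was 8095 to 8266 CPM in the controls and 4612 to 4811 in silicosis. Among alveolar type 1 markers 7 of 10 fell and 0 rose (6308 to 7144 against 3734 to 4444 CPM), and among fibroblast markers 8 of 10 fell and 0 rose (3054 to 3107 against 1163 to 1485 CPM). Among pericyte and smooth muscle markers 4 of 10 fell and 1 rose (1212 to 1330 against 882 to 932 CPM). Macrophage and monocyte markers went the other way, with 9 of 12 higher and 0 lower (537 to 606 against 1633 to 2581 CPM), as did neutrophil markers with 5 of 8 higher (107 to 202 against 411 to 509 CPM). Of 10 alveolar type 2 markers 0 rose and 1 fell (17865 to 20847 against 16531 to 24625 CPM). Of 9 airway epithelial markers 0 rose and 4 fell (11103 to 18929 against 5415 to 9465 CPM). Most of that airway sum was 1 gene, Scgb1a1. It gave 9755, 10995 and 16836 CPM in C7, C8 and C9 and 5046, 3955 and 7622 CPM in N129, N136 and N138. Of 7 mesothelial markers 0 rose and 3 fell (166 to 181 against 120 to 153 CPM). Of 9 lymphocyte and plasma cell markers 3 rose, 1 fell and 5 were not called (188 to 257 against 308 to 1099 CPM). Most of that sum in each silicosis library was 1 gene, Jchain, so it does not describe the list as a set. Jchain gave 18.2 to 40.2 CPM in the controls and 184 to 893 CPM in silicosis. Among basal and injury epithelial markers 6 of 10 rose and 1 fell, while their summed level overlapped between the groups (216 to 284 against 209 to 243 CPM). Most of that sum in each library was Krt8, which was not called, and Krt19, which fell. It therefore does not describe the scarce markers that rose. Adipocyte markers were higher for 2 of 5, nerve and Schwann cell markers for 2 of 5 and muscle markers for 1 of 6, with 0 lower in each list. The one marker at 0 in all libraries of a group was Krt5, a keratin of basal epithelial cells singled out after its values were seen, with 0 counts in each control and 80, 108 and 125 counts in N129, N136 and N138. The part of these shifts in the members' values was not tested.

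Of the 6 type IV collagens, Col4a3, Col4a4, Col4a5 and Col4a6 fell, and Col4a1 and Col4a2 did not pass. Differences between chains are taken up with the count ratios. Col4a3, a chain of the specialised network, stood at 435, 488 and 376 CPM in C7, C8 and C9 and at 218, 232 and 214 CPM in N129, N136 and N138. The partner chain Col4a4 stood at 281, 301 and 236 CPM in the controls and at 173, 168 and 181 CPM in silicosis. In both genes the highest silicosis library was well under the lowest control library, C9. Col4a3 fell by 48.9% (log2 fold change -0.97, SE 0.11, adjusted p = 0.000359 by edgeR), Col4a4 by 36.3% (-0.65, SE 0.11, adjusted p = 0.00209). Some 5.53% of the windows of Col4a3 are shared with another gene.

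Col4a5, the chain that joins Col4a3 and Col4a4 and also pairs with Col4a6, gave 185, 181 and 130 CPM in C7, C8 and C9 and 103, 110 and 120 CPM in N129, N136 and N138. The groups did not overlap, but C9 and N138 lay close together. It fell by 32.9% (log2 fold change -0.57, SE 0.14, edgeR adjusted p = 0.0127). The call was lost without C7, C8 or N129, with adjusted p reaching 0.0534. Col4a6, the least abundant chain, gave 44.2, 47.4 and 37.7 CPM in the controls and 26.7, 20.5 and 30.2 CPM in silicosis. All silicosis values were below all control values, and it fell by 40.3% (log2 fold change -0.74, SE 0.15, adjusted p = 0.00652).

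For the widespread network the libraries overlapped. Col4a1 gave 1573, 1718 and 1210 CPM in C7, C8 and C9 and 1336, 1737 and 1142 CPM in N129, N136 and N138, so the highest library of all was a silicosis library, N136. Its log2 fold change was -0.09 (SE 0.18, edgeR adjusted p = 0.717), with a sign that changed without C8 (0.011), without N138 (0.036) and with library totals in place of TMM (0.0036). Col4a2 gave 1055, 1167 and 953 CPM in the controls and 844, 1068 and 764 CPM in silicosis, a log2 fold change of -0.25 (SE 0.14, adjusted p = 0.209). N136 was the only silicosis library inside the control range for Col4a2, and without it the value was -0.40 with an adjusted p of 0.0277.

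**Figure D2:**
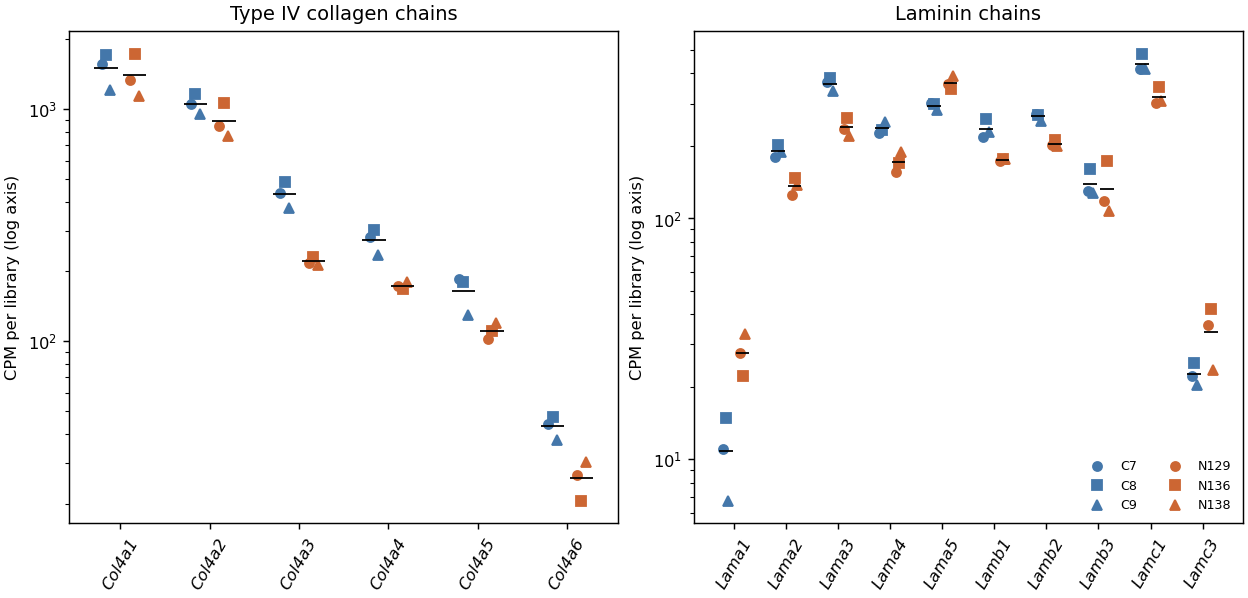
CPM of each type IV collagen chain (left) and each laminin chain (right) in every library on a log axis, with controls in blue, silicosis in orange and a black line at each group mean (n = 3). The groups are separated for Col4a3 to Col4a6 and interleaved for Col4a1 and Col4a2, and Lama1 and Lama5 are the laminin chains with all silicosis libraries on top.

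Per kilobase of the longest GENCODE transcript, the type IV chains had the same order of mean level in both groups, from Col4a1 down to Col4a6, although Col4a4 and Col4a5 lay within their spread of each other. Col4a1 had a level of 227 ± 39.6 CPM per kilobase in control (SD, n = 3) and Col4a2 164 ± 16.6, the highest of the 31 members in both groups, whereas Col4a3 had 50.6 ± 6.50 and Col4a6 had 6.48 ± 0.741. As a share of the summed per-kilobase level of the 6 chains, Col4a3 made up 9.88%, 10.1% and 10.4% in C7, C8 and C9 and 6.44%, 5.51% and 7.01% in N129, N136 and N138. Col4a4 made up 5.30% to 5.52% in the controls and 3.37% to 5.02% in silicosis. Col4a1 made up 43.2% to 46.2% in the controls and 48.4% to 53.4% in silicosis. The shares of Col4a2, Col4a5 and Col4a6 overlapped between groups. A share depends on the other chains of the family, so these describe make-up and not amount.

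**Figure D3:**
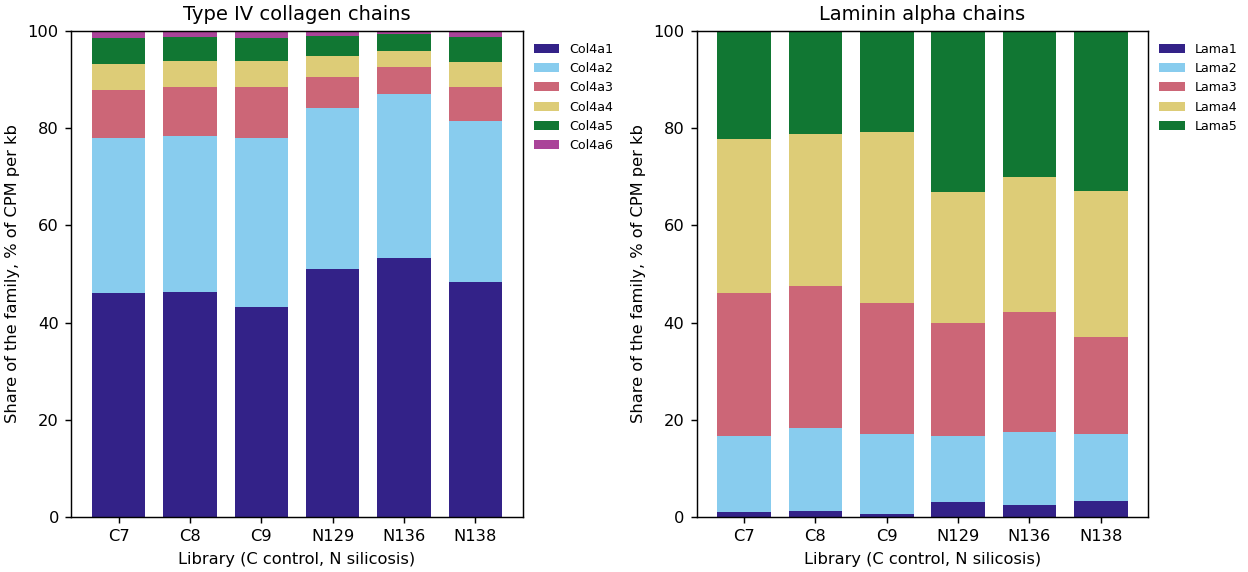
Stacked shares of the 6 type IV collagen chains (left) and the 5 laminin alpha chains (right) in each library, in percent of the family's summed CPM per kilobase of transcript. Col4a1 takes a larger share in every silicosis library than in any control, Col4a3 a smaller one, and Lama5 goes from 20.8% to 22.3% in the controls to 30.0% to 33.1% in silicosis.

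Each laminin alpha chain changed, and they did not all change one way: Lama2, Lama3 and Lama4 fell while Lama1 and Lama5 rose. Lama3, the alpha chain of epithelial laminins that anchor hemidesmosomes, gave 370, 382 and 339 CPM in C7, C8 and C9 and 236, 262 and 219 CPM in N129, N136 and N138. Lama4, typical of vessel walls, gave 227, 233 and 253 CPM in the controls and 156, 170 and 189 CPM in silicosis. Lama2, the alpha chain of muscle and mesenchymal laminin, gave 180, 202 and 188 CPM in the controls and 125, 147 and 137.8 CPM in silicosis. None of the 3 chains had overlapping groups. Their log2 fold changes were -0.60 (SE 0.10, edgeR adjusted p = 0.00217) for Lama3, -0.47 (SE 0.10, adjusted p = 0.00707) for Lama4 and -0.48 (SE 0.10, adjusted p = 0.00539) for Lama2.

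Lama5, the broadly expressed alpha chain of mature epithelial and vascular laminins, gave 302, 299 and 282 CPM in the controls and 360, 344 and 389 CPM in N129, N136 and N138. The groups did not overlap, but the rise of 23.8% was small (log2 fold change 0.31, SE 0.09, edgeR adjusted p = 0.0274). The call was lost when any control library, N129 or N138 was left out, with adjusted p up to 0.0836, while the log2 value stayed between 0.26 and 0.42 under the alternatives tried. Lama1, the alpha chain of embryonic laminin, is scarce in lung and gave 11.0, 14.8 and 6.71 CPM in C7, C8 and C9 and 27.7, 22.2 and 33.1 CPM in N129, N136 and N138. Each silicosis library was above each control library, and it rose 2.55-fold (log2 fold change 1.35, SE 0.26, adjusted p = 0.00493). Per kilobase Lama1 stayed the least abundant alpha chain, with a level of 2.90 ± 0.570 CPM per kilobase in silicosis (SD, n = 3) against 32.0 ± 2.01 for Lama5. Lama5 went from 20.8% to 22.3% of the alpha chains in control to 30.0% to 33.1% in silicosis, and Lama3 from 27.0% to 29.5% to between 20.0% and 24.7%.

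Among beta and gamma chains the common ones fell together by similar amounts. Lamc1, the gamma chain of most laminins, gave 418, 484 and 418 CPM in the controls and 301, 353 and 306 CPM in silicosis. Lamb1, the beta chain of early and widespread laminins, gave 218, 259 and 229 CPM in the controls and 173, 177 and 176 CPM in silicosis. Lamb2, the beta chain that replaces it in many mature basement membranes, gave 273, 270 and 255 CPM in the controls and 202, 211 and 200 CPM in silicosis. The groups were separated for each of these genes, and the silicosis values of Lamb1 lay within a narrow band. Lamc1 fell by 0.46 on the log2 scale (SE 0.10, edgeR adjusted p = 0.0101), Lamb1 by 0.42 (SE 0.09, adjusted p = 0.00827) and Lamb2 by 0.38 (SE 0.08, adjusted p = 0.00793).

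Lamb3, the partner of Lama3 in epithelial laminin, did not pass. It gave 130, 160 and 128 CPM in the controls and 119, 173 and 107 CPM in N129, N136 and N138, with N136 above all other libraries (log2 fold change -0.07, SE 0.18, edgeR adjusted p = 0.805). Lamc3, a gamma chain of restricted expression, gave 22.2, 25.2 and 20.3 CPM in C7, C8 and C9 and 36.0, 42.1 and 23.6 CPM in N129, N136 and N138, so N138 lay inside the control range. Its rise (log2 fold change 0.59, SE 0.20, adjusted p = 0.0484) sat at the threshold, and the call was lost in 8 of 11 alternatives, with adjusted p up to 0.151. These were DESeq2 size factors, no filter, limma-voom and leaving out any control library, N129 or N136.

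Of the linkers between the networks, Nid1 and Hspg2 fell, and Nid2 and Agrn did not pass. Nid1, the main nidogen, gave 271, 291 and 238 CPM in the controls and 195, 202 and 199 CPM in silicosis, and Hspg2, perlecan, gave 786, 856 and 786 CPM against 629, 693 and 644 CPM. Both had separate groups. The log2 fold change of Nid1 was -0.42 (SE 0.10, edgeR adjusted p = 0.0101; 0.0502 without C8). That of Hspg2 was -0.31 (SE 0.09, adjusted p = 0.0324), and its call was lost with library totals in place of TMM and when any control library, N129 or N138 was left out, with adjusted p up to 0.128. Nid2, the second nidogen, gave 19.2, 17.0 and 16.2 CPM in the controls and 17.1, 15.6 and 23.0 CPM in silicosis (log2 fold change 0.09, SE 0.16, adjusted p = 0.707, and -0.091 without N138). Agrn, agrin, a heparan sulphate proteoglycan that binds laminin and dystroglycan, was at 381 ± 49.9 CPM in control and 401 ± 30.6 in silicosis (SD, n = 3; log2 fold change 0.07, SE 0.12, adjusted p = 0.667, and -0.034 without C9).

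The Fraser complex proteins, which hold epithelium to the underlying matrix during development, were scarce. Frem1 gave 34.4, 34.4 and 36.1 CPM in the controls and 21.4, 23.3 and 27.6 CPM in silicosis, and Frem2 gave 9.91, 11.9 and 9.50 CPM against 6.70, 4.34 and 7.82 CPM. Groups were separate for both, and both fell, Frem1 by 0.54 on the log2 scale (SE 0.12, edgeR adjusted p = 0.00852) and Frem2 by 0.73 (SE 0.22, adjusted p = 0.0342). The Frem2 call was lost with library totals and when any control library, N129 or N136 was left out, with adjusted p up to 0.118. Fras1 overlapped between groups, at 20.2, 14.2 and 16.8 CPM in the controls and 9.02, 10.6 and 17.3 CPM in N129, N136 and N138. The log2 fold change was -0.47 (SE 0.24, adjusted p = 0.165), and it was -0.80 with an adjusted p of 0.0109 without N138.

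Among receptors, the collagen-binding integrin chain Itga1, the laminin-binding chain Itga3 and dystroglycan (Dag1) fell, and Itga2, Itga6 and Itgb4 did not pass. Itga3 gave 368, 376 and 347 CPM in the controls and 249, 268 and 224 CPM in silicosis. Itga1 gave 661, 575 and 667 CPM against 476, 427 and 485 CPM. Both were lower in each silicosis library than in any control, with log2 fold changes of -0.56 for Itga3 (adjusted p = 0.00265 by edgeR, SE 0.10) and -0.45 for Itga1 (adjusted p = 0.00886, SE 0.10). Some 5.45% of the windows of Itga1 are shared with other genes. Dag1 gave 610, 628 and 629 CPM in the controls and 466, 556 and 405 CPM in silicosis, a wider spread than in the controls. Its log2 fold change was -0.39 (SE 0.12, adjusted p = 0.0366), and the call was lost with library totals and when any control library, N129 or N138 was left out, with adjusted p up to 0.108. Itga6 and Itgb4 form the hemidesmosome integrin, which binds the laminin made with Lama3 and Lamb3. Itga6 was at 276 ± 24.9 CPM in control and 254 ± 40.3 in silicosis (log2 fold change -0.12, SE 0.13), and Itgb4 was at 38.0 ± 4.84 and 40.0 ± 2.23 CPM (SD, n = 3; log2 fold change 0.07, SE 0.12, and -0.0048 without C7). Itga2, the other collagen-binding chain, was at 65.8 ± 6.01 and 60.2 ± 5.06 CPM (log2 fold change -0.13, SE 0.11). The edgeR adjusted p values of these genes were 0.494, 0.658 and 0.383.

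The crosslinker and the matricellular protein moved in opposite directions. Pxdn, peroxidasin, which forms the sulfilimine bonds between type IV collagen trimers, gave 318, 283 and 296 CPM in the controls and 210, 238 and 237 CPM in silicosis. It fell by 0.39 on the log2 scale (SE 0.09, edgeR adjusted p = 0.0128), with no overlap between groups, and the call was lost without C7 or N129 (adjusted p up to 0.0619). Smoc2, a secreted calcium-binding protein related to SPARC, gave 8.87, 11.8 and 9.84 CPM in the controls and 28.1, 25.2 and 48.2 CPM in N129, N136 and N138. Every silicosis library exceeded every control library, N138 by the widest margin. It rose 3.32-fold (log2 fold change 1.73, SE 0.24, adjusted p = 0.000968), and 1.39 was the lowest log2 value under the alternatives.

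Count ratios within a library do not depend on library scaling, and 12 pairs of related chains or receptors were compared this way by an exact two-sided permutation test. With 3 against 3 libraries this exact test cannot give a p below 0.1, so no pair could pass 0.05. The 8 pairs whose groups were separate had an exact permutation p of 0.1, or 0.15 adjusted over the 12 pairs. Some pairs share a gene, and the share of separate groups among pairs of other genes was not counted. For single mRNAs, the groups were separate in either direction for 47.7% of all tested. Col4a3 over Col4a1 had log2 ratios of -1.85, -1.82 and -1.68 in C7, C8 and C9 and -2.62, -2.90 and -2.42 in N129, N136 and N138, a difference of -0.86. Col4a4 over Col4a2 differed by -0.39, with N138 at -2.08 just below C9 at -2.01. Lama3 over Lama5 changed sign, from 0.29, 0.35 and 0.26 in the controls to -0.61, -0.39 and -0.83 in silicosis.

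Lama5 over Lama4 differed by 0.78, and Agrn over Hspg2 by 0.38. Nid2 over Nid1 differed by 0.49 and Itga2 over Itga1 by 0.33, in each case with separate groups. Itga3 over Itga6, alternative alpha chains of laminin-binding integrins, had log2 ratios of 0.39, 0.33 and 0.48 in the controls and 0.04, -0.16 and 0.03 in silicosis, a difference of -0.43. The 4 pairs with overlapping groups were Col4a6 over Col4a5 (difference -0.19), Lamb2 over Lamb1 (0.04), Lamb3 over Lamb2 (0.29) and Itgb4 over Itga6 (0.21), with exact permutation p of 0.4, 0.7, 0.3 and 0.5.

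**Figure D4:**
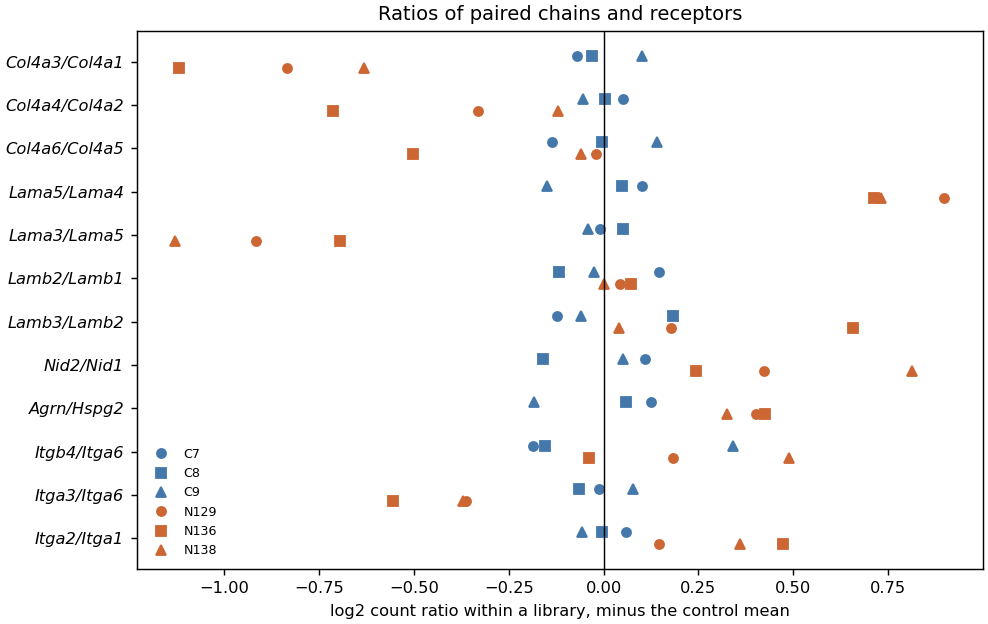
Log2 count ratio of 12 pairs within each library, drawn as the distance from the mean of the 3 controls (controls blue, silicosis orange, marker shape by library). The silicosis libraries lie wholly to one side of the controls in 8 pairs, farthest left for Lama3 over Lama5 and Col4a3 over Col4a1 and farthest right for Lama5 over Lama4.

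Beside the members, 34 other basement membrane and adjoining matrix genes were counted. In silicosis 8 rose, 10 fell and 16 missed the threshold, with a median log2 fold change of -0.03. Over all tested mRNAs 15.3% rose and 16.5% fell, with a median of 0.02. The genes with the lowest p in each direction are given here. Col15a1, a collagen of the outer face of vascular and muscle basement membranes, was at 35.0 ± 4.54 CPM in control and 83.8 ± 16.01 in silicosis (SD, n = 3) and rose by 1.26 on the log2 scale (SE 0.15). Vwa1, which binds perlecan, rose by 1.30 (SE 0.19), Fbln2, a fibulin, by 1.37 (SE 0.24), Smoc1, the relative of Smoc2, by 1.16 (SE 0.21) and Tgfbi by 0.81 (SE 0.16). Npnt, nephronectin, a ligand of the integrin chain Itga8 and also among the fibroblast markers, had a log2 fold change of -1.34 (SE 0.11). Prelp, which binds perlecan and collagen, fell by 1.41 (SE 0.10), Efemp1 by 1.08 (SE 0.09), Ntn4, a netrin that binds laminin, by 1.12 (SE 0.12) and Ltbp4 by 1.06 (SE 0.12).

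A list of 36 other receptor and linker genes had 6 higher, 11 lower and 19 under no call, with a median of -0.20. These counts stand beside 15.3% higher and 16.5% lower over all tested mRNAs, so the number higher was near the background. Itga8 fell by 1.31 on the log2 scale (SE 0.15), Sdc2, a syndecan, by 0.86 (SE 0.10) and Utrn, utrophin, which links dystroglycan to actin, by 0.74 (SE 0.10). The adhesion adaptors Fermt2 and Vcl fell by 0.74 (SE 0.08) and 0.67 (SE 0.08). Itga7, a laminin-binding chain, was at 19.0 ± 2.75 CPM in control and 47.6 ± 17.8 in silicosis (SD, n = 3) and rose by 1.33 (SE 0.24). Itgb8 rose by 1.67 (SE 0.16), Itgav by 0.56 (SE 0.09), Itgb6 by 0.57 (SE 0.13) and Sdc1 by 0.64 (SE 0.13). Itgb1, the beta chain that pairs with Itga1, Itga2, Itga3, Itga6 and Itga7, was not called (log2 fold change -0.14, SE 0.10, edgeR adjusted p = 0.298).

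By the values in the authors' deposited table, 4 members were higher and 18 lower at an adjusted p under 0.05, and the sign was the same as in the edgeR fit for all 31. Of the 31, the authors' deposited table marks 2 as Up, Lama1 and Smoc2, and 0 as Down, with Col4a3 at a log2 fold change of -0.98. Those marks therefore do not follow an adjusted p under 0.05 alone. DESeq2 run here on the same counts also gave -0.98 for Col4a3, so the deposited values are not independent evidence. Over the whole table of 17973 mRNAs that DESeq2 run called 2661 higher and 2873 lower, and of the members 4 higher and 18 lower. Calls over all mRNAs of the authors' deposited table were not counted, so its member counts have no background of their own here.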

How the data were processed

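The deposited table holds raw whole-number counts per gene and library, made by the authors and not normalised. Log2 fold changes with adjusted p-values for silicosis over control are in the authors' deposited table. Per the submitters' processing notes, Trimmomatic 0.39, featureCounts 2.0.0, HISAT2, Bowtie2, DESeq2 1.36.0 and GRCm39 were used, in no stated role. Counts were fitted with edgeR 4.0.16 (R 4.3.3) after filterByExpr, with TMM factors, the quasi-likelihood F test and Benjamini-Hochberg adjustment over 15808 mRNAs at 0.05. An SE is the size of the log2 fold change over the square root of F. Ratios used counts plus 0.5. Chi-square per degree of freedom between libraries of a group was 15.0 to 79.0, so none was a copy or re-sequencing of another. This value cannot tell whether libraries came from separate mice. Library totals were 33698920 to 44000748. The fits were tested on simulated data. There edgeR recovered 80% of 2-fold and 95% of 4-fold changes, and 5.41% of its calls were false. DESeq2 recovered 85% of 2-fold changes with 18.6% of calls false, and limma-voom 76% with 5.06% false. Changes were put into a much smaller part of the genes than was called in the real data. Recovery of changes under 2-fold, the size seen in most called members, was not tested.

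Members, lists and pairs were chosen with earlier results of these data known. Named genes are all members and, of the other lists, up to 5 called genes with the lowest p in each direction; Itgb1 was added after its values were seen. Alternatives were no filter, DESeq2's size factors, DESeq2 1.42.0 itself, voom of limma 3.58.1, each library left out and 0 or 5 counts added to ratios. Library totals without TMM were tried after seeing the data. The lncRNA and circRNA tables were not used here.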

Additional observations from a re-analysis of the deposited data

How the results depend on the processing

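No paired analysis was possible because the groups share no replicate numbers. Of the 22 called members, 22 kept their direction and 14 their call in each of the 11 alternatives; the 20 named genes of the other lists kept theirs. The members called lower numbered 13 to 18 when a library was left out and 15 with library totals, and those called higher 2 to 4 over the alternatives, with 2 without C7, C8, C9 or N129. With library totals in place of TMM, the median of all genes moved by 0.10 on the log2 scale and the share of calls that were higher went from 48.2% to 64.0%. Signs changed only in members that were not called. Col4a1 became 0.0036 with library totals, 0.0113 without C8 and 0.0363 without N138. Lamb3 became 0.0320 with library totals, 0.0421 without C8, 0.0093 without N129 and 0.0726 without N138. Nid2 became -0.0909 without N138, Agrn -0.0337 without C9 and Itgb4 -0.0048 without C7, and the log2 ratio of Lamb2 over Lamb1 became -0.0206 without C8. The cause was not tested. The effect of depth was not tested.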
